A study of Mus musculus with 24 samples.

Results

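Cells make cholesterol from acetyl-CoA in a long chain of enzymes and adjust that chain to the sterol in the membrane of the endoplasmic reticulum. The gene module described here holds the enzymes of that chain with the proteins that sense, carry and export sterol. Its 29 members were chosen by name, as 8 genes of the mevalonate arm, 11 of the sterol arm, 4 of sterol sensing and 6 of sterol transport, efflux and storage. A member was measured where a feature of the array carried its symbol alone, which held for 25 of the 29. Each of the 25 had 1 feature and passed the filter on low signal in both tissues, among 16738 genes tested in the ventromedial hypothalamus (VMH) and 17800 in brown adipose tissue (BAT). Tm7sf2 and Msmo1, sterol arm enzymes, lay on features with several symbols, no feature carried the symbol Acat2 or Soat1, and these 4 were not analysed here.

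The arrays compared mice labelled Gfap-Bmal1 cKO with control mice, each on high fat diet (HFD) or standard diet (SD). Gfap is a gene of astrocytes that directs the deletion, and Bmal1 is a core gene of the circadian clock. Both diets had been given for 16 weeks. The 8 groups, each of 3 arrays, were cKO HFD, cKO SD, control HFD and control SD in VMH, a hypothalamic nucleus of energy balance dissected from sections of 100 µm, and the same 4 in 20 mg of BAT, the heat-producing fat. Strain, age and sex were not given in the sources used here. No label ties an array to an animal. The replicate spread behind each p-value may therefore be partly technical. Both tissues were taken whole, so that fewer cells of a type and less RNA per cell cannot be told apart.

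In cells rich in sterol, INSIG proteins hold the complex of SCAP and the transcription factor SREBP2, the product of Srebf2, in the endoplasmic reticulum. When sterol falls, the complex moves to the Golgi, where SREBP2 is cut free and then raises transcription of nearly every enzyme of the chain. Oxysterols, by contrast, act through LXR receptors, whose best known targets Abca1 and Abcg1 encode pumps that move cholesterol out of the cell. In the brain cholesterol is made locally, largely by glia, with myelinating oligodendrocytes among the heaviest users.

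Whether the arrays match their labels bears on every value below. Bmal1, which the array lists as Arntl, read 9.54, 8.99 and 9.04 on cKO HFD arrays and 8.93, 9.26 and 9.32 on cKO SD arrays in VMH, against 9.22, 8.83 and 8.80 on control HFD arrays and 8.58, 8.80 and 8.49 on control SD arrays, all as log2 signal. It was not lower on the arrays labelled cKO, and the averaged difference was 0.40 ± 0.12 (SE) in VMH and 0.37 ± 0.24 in BAT, with limma adjusted p of 0.25 and 0.682. Which part of the gene was deleted is not given in the sources used here, so this feature may check nothing, and each direction by genotype rests on the label. In BAT, Ucp1, the thermogenic uncoupling protein that defines brown adipocytes, read 8.87 on control SD array 1 and between 16.30 and 19.93 on the other 11 arrays, so that array goes against its tissue label. The mean over 15 skeletal muscle markers read 6.08, 10.56 and 12.98 on cKO HFD arrays, 14.62, 17.14 and 16.50 on cKO SD arrays, 7.22, 6.07 and 9.78 on control HFD arrays and 17.33, 6.05 and 16.32 on control SD arrays of BAT. Every SD array other than control SD array 2 thus carried more muscle signal than any HFD array, so that muscle moves with diet in BAT.

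Promoter sequence is shown for the members in which a motif of sterol or clock regulation was found, to place the signals beside the DNA that those factors read. RefSeq promoters (assembly GRCm38.p6) were searched on both strands over 250 bases upstream of each start, with 29 windows from 23 of the 29 members. A form of the sterol regulatory element, TCACNCCAC, which SREBP binds, was in 1 window, or 3.45%, against 1.05% of all 32851 promoters. The E-box CACGTG, bound by BMAL1 with its partner CLOCK and also by other factors of the same family, was in 6, or 20.7%, against 6.02%. The box CCAAT, bound by NF-Y, was in 20, or 69%, against 33.8%. The windows below, of 70 bases each and written 5′ to 3′ on the strand of the gene, were picked for display after expression values were seen.
Hmgcs1: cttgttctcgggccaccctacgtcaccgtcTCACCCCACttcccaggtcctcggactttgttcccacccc
Insig1: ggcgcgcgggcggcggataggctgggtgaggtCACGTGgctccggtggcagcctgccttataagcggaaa
Sc5d: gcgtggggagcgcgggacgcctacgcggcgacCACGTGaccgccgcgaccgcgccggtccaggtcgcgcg
Hsd17b7: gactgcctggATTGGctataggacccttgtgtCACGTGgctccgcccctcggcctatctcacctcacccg
The Hmgcs1 window is chr13:119690184-119690253 on the plus strand and its capitals mark the sterol regulatory element form, 137 bases before the start. Capitals in the Insig1 window, chr5:28071279-28071348 on the plus strand, mark an E-box 101 bases before the start. For Sc5d the window is chr9:42264361-42264430 on the minus strand, with an E-box in capitals 98 bases before the start. Hsd17b7, at chr1:169969311-169969380 on the minus strand, shows an E-box 143 bases before the start and, upstream of it, the NF-Y box read on the other strand. The E-boxes of Abca1, Dhcr7 and Scap are not printed. A match describes letters and is no evidence of binding.

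The clearest pattern of the module was in BAT of cKO mice, where HFD arrays were set against SD arrays. All 25 measured members had a higher mean on HFD, with a median log2 difference of 0.79, against a median of 0.042 over all genes tested, of which 56.5% were above 0. At an unadjusted p under 0.05, 17 members were higher and none lower, beside 11.8% of all genes higher. No member passed an adjusted p of 0.05 in limma, and neither did any other gene (0% of 17800). The arrays of the 2 diets did not overlap for 16 members, beside 15.3% of all genes that were higher without overlap. The smallest adjusted p of a member was 0.0857. Muscle marker signal was lower without overlap on cKO HFD arrays than on cKO SD arrays for 15 of 15 markers, and brown adipocyte markers were higher in mean for 10 of 11.

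**Figure D1:**
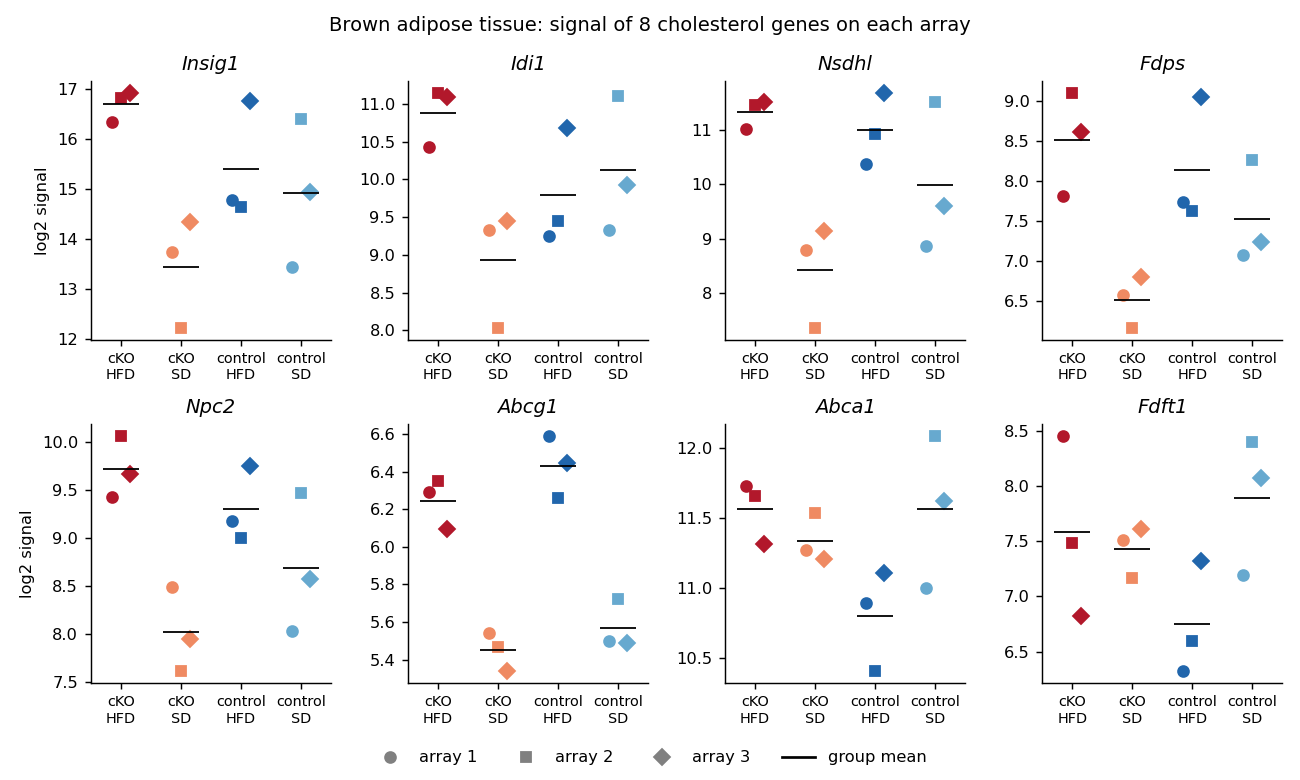
Log2 signal (vertical axes, scaled separately) of 8 members on each BAT array, with groups along the horizontal axis, marker shape for the array number and a line for the group mean. Insig1, Idi1, Nsdhl, Fdps, Npc2 and Abcg1 lie higher on all 3 cKO HFD arrays than on any cKO SD array, while control SD array 2 (square) stands above the other control SD arrays for all 8.

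The mevalonate arm, which turns acetyl-CoA into isoprenoid units, had 7 of 7 measured members higher on HFD in cKO BAT, beside 56.5% of all genes. Their median was 1.73, and 5 of them had an unadjusted p under 0.05, beside 11.8% of all genes in that direction. Hmgcs1, the HMG-CoA synthase that makes the substrate of the committed step, read 16.14, 16.03 and 16.38 in cKO HFD, 15.51, 12.40 and 14.43 in cKO SD, 17.23, 16.99 and 16.22 in control HFD and 13.41, 16.65 and 14.77 in control SD. The 3 cKO HFD arrays lay above the cKO SD arrays, which spread over more than 3 log2 units, and the difference was 2.07 ± 0.87 (SE, adjusted p = 0.203). Idi1, the isomerase of isopentenyl diphosphate, read 10.43, 11.15 and 11.09 in cKO HFD, 9.33, 8.04 and 9.45 in cKO SD, 9.26, 9.45 and 10.69 in control HFD and 9.33, 11.11 and 9.92 in control SD. Its diet difference in cKO was 1.95 ± 0.55 (adjusted p = 0.116) and in control −0.32 ± 0.55 (adjusted p = 0.767), and the control groups overlapped. Fdps, which makes farnesyl diphosphate, read 7.82, 9.11 and 8.61 in cKO HFD, 6.58, 6.17 and 6.81 in cKO SD, 7.74, 7.63 and 9.05 in control HFD and 7.07, 8.27 and 7.24 in control SD. The difference in cKO was 1.996 ± 0.47 (adjusted p = 0.105). Pmvk, phosphomevalonate kinase, differed by 1.73 and Ggps1, the geranylgeranyl diphosphate synthase of a side branch, by 0.29, both without overlap in cKO. Mvd, the decarboxylase of the arm, read 5.70, 5.83 and 5.995 in cKO HFD, 5.23, 5.34 and 5.73 in cKO SD, 5.36, 5.51 and 5.62 in control HFD and 5.33, 6.21 and 5.85 in control SD. It differed by 0.41 in cKO, and the kinase Mvk by 0.27, with arrays of the diets overlapping.

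In the sterol arm, which builds the ring and trims it to cholesterol, 9 of 9 measured members were higher in mean on HFD in cKO BAT, beside 56.5% of all genes. Their median was 1.61, and 7 had an unadjusted p under 0.05, beside 11.8% of all genes in that direction. Nsdhl, a dehydrogenase that helps remove methyl groups from sterol intermediates, read 11.01, 11.45 and 11.51 in cKO HFD, 8.79, 7.36 and 9.13 in cKO SD, 10.37, 10.92 and 11.68 in control HFD and 8.87, 11.52 and 9.60 in control SD. The difference in cKO was 2.90 ± 0.67 (adjusted p = 0.105), the largest of the arm. Hsd17b7, a reductase of the same complex, read 6.98, 7.27 and 7.57 in cKO HFD, 6.27, 6.31 and 6.30 in cKO SD, 6.66, 6.54 and 7.47 in control HFD and 6.72, 7.32 and 6.62 in control SD. The cKO SD arrays lay within 0.1 of each other and below every other BAT array, a diet difference of 0.98 ± 0.27. Sc5d, the lathosterol oxidase, read 12.92, 12.93 and 13.79 in cKO HFD, 10.78, 10.96 and 12.96 in cKO SD, 12.82, 13.13 and 12.76 in control HFD and 12.92, 13.77 and 12.67 in control SD. Its cKO SD array 3 sat with the other groups rather than with its own. Dhcr7, the reductase of the last step of a branch, read 6.06, 6.37 and 6.46 in cKO HFD, 5.74, 5.26 and 5.75 in cKO SD, 6.36, 6.63 and 6.45 in control HFD and 5.46, 6.75 and 5.75 in control SD. It differed by 0.71 ± 0.29 in cKO and 0.49 ± 0.29 in control. Lanosterol synthase (Lss) differed by 1.79, lanosterol demethylase (Cyp51) by 1.73 and squalene epoxidase (Sqle) by 1.61 in cKO, each without overlap. Fdft1, the squalene synthase that commits farnesyl units to sterol, did not share this size of difference. It read 8.45, 7.48 and 6.82 in cKO HFD, 7.51, 7.16 and 7.61 in cKO SD, 6.33, 6.60 and 7.32 in control HFD and 7.20, 8.40 and 8.07 in control SD. This gave 0.16 ± 0.44 in cKO (95% interval −0.83 to 1.15, adjusted p = 0.854) and −1.14 ± 0.44 in control (adjusted p = 0.176). Ebp, the sterol isomerase, had a difference of 0.13 in cKO.

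Among the sensors, Insig1, itself a classic SREBP target, had the largest difference of the module. It read 16.34, 16.81 and 16.92 in cKO HFD, 13.73, 12.22 and 14.33 in cKO SD, 14.78, 14.63 and 16.76 in control HFD and 13.44, 16.40 and 14.93 in control SD. The 3 cKO HFD arrays stood above all cKO SD arrays by 3.26 ± 0.82 in the mean (adjusted p = 0.105), and the control groups, at 0.47 ± 0.82, overlapped. Insig2, the second INSIG, read 9.15, 9.26 and 9.17 in cKO HFD, 9.19, 9.13 and 8.92 in cKO SD, 9.27, 9.06 and 9.11 in control HFD and 9.60, 9.14 and 9.14 in control SD. All lay within 1 log2 unit, and the difference in cKO was 0.11 ± 0.14 (95% interval −0.19 to 0.42). Srebf2 read 6.98, 6.98 and 6.79 in cKO HFD, 6.54, 6.05 and 6.50 in cKO SD, 6.87, 6.87 and 7.05 in control HFD and 6.34, 7.01 and 6.44 in control SD. It was higher without overlap in cKO by 0.55 ± 0.19 (adjusted p = 0.152). Scap read 7.15, 7.09 and 7.01 in cKO HFD, 7.15, 6.24 and 6.52 in cKO SD, 7.02, 7.08 and 7.24 in control HFD and 6.19, 7.19 and 6.57 in control SD. Here cKO SD array 1 reached the HFD level.

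Abcg1, the sterol efflux pump, was the member that passed the adjusted threshold of limma in this series. It read 6.29, 6.35 and 6.09 in cKO HFD, 5.54, 5.47 and 5.34 in cKO SD, 6.59, 6.26 and 6.44 in control HFD and 5.50, 5.72 and 5.49 in control SD. In control BAT it rose by 0.86 ± 0.12 on HFD (adjusted p = 0.0317), beside 0.742% of all genes that passed, and in cKO BAT the difference was 0.79 ± 0.12 (adjusted p = 0.0857). In both genotypes every HFD array lay above every SD array. All 6 endothelial markers were also higher on HFD in control BAT, by a median of 1.60, and 2 of them passed the threshold. Their part in the Abcg1 value was not tested. The call in control BAT ended when any 1 of 7 arrays was left out, namely control SD array 1 (adjusted p = 0.0791) or 3 (0.159), control HFD array 1 (0.121) or 2 (0.0509), cKO SD array 2 (0.0621) or 3 (0.0501), or cKO HFD array 2 (0.0535). It also ended with the muscle list mean as a covariate (0.76, adjusted p = 0.119), with only the groups compared (0.0639), with array weights (0.244) and without the 2 arrays of highest muscle signal (0.128). Abcg1 in cKO BAT passed without control SD array 2 (0.047) or without cKO SD array 1 (0.0182).

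Abca1, the pump that loads cholesterol onto apolipoproteins, had a lower mean on HFD in control BAT. It read 11.73, 11.66 and 11.32 in cKO HFD, 11.27, 11.54 and 11.21 in cKO SD, 10.90, 10.41 and 11.11 in control HFD and 10.998, 12.09 and 11.62 in control SD. Its diet difference was −0.77 ± 0.27 in control (adjusted p = 0.156), with overlapping arrays, and 0.23 ± 0.27 in cKO (adjusted p = 0.632). Of the lysosomal pair that releases cholesterol from endocytosed particles, Npc2 read 9.43, 10.07 and 9.67 in cKO HFD, 8.49, 7.61 and 7.95 in cKO SD, 9.17, 8.997 and 9.75 in control HFD and 8.03, 9.47 and 8.57 in control SD. It was higher without overlap in cKO by 1.71 ± 0.37 (adjusted p = 0.105). Npc1 read 9.11, 9.73 and 8.82 in cKO HFD, 9.45, 8.89 and 8.30 in cKO SD, 9.45, 9.20 and 9.27 in control HFD and 8.74, 8.76 and 8.40 in control SD. Its difference was 0.68 ± 0.29 in control (adjusted p = 0.213), and its cKO arrays overlapped. Stard4, a cytosolic sterol carrier, differed by 0.55 ± 0.16 in cKO. Macrophages, which also carry Abcg1, were followed by 10 markers, whose mean read 8.70, 8.23 and 7.51 on cKO HFD arrays, 7.04, 7.29 and 6.88 on cKO SD arrays, 8.15, 7.39 and 7.95 on control HFD arrays and 7.21, 6.16 and 6.63 on control SD arrays. Every HFD array was above every SD array in that list, and its part in the result was not tested.

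In control BAT the median difference of the module was close to that of all genes. Of 25 members 15 had a higher mean on HFD, beside 56% of all genes, with a median of 0.058 against 0.041 over all genes tested. An unadjusted p under 0.05 was found for 4, 2 higher (Abcg1 and Npc1) and 2 lower (Abca1 and Fdft1), beside 22.6% of all genes. The count was 2 without control SD array 3 or control HFD array 1, 1 without control HFD array 2, and 9 without control SD array 2. The last of these lay above both other control SD arrays for 24 of 25 members, had the highest signal of all 12 BAT arrays for 8, and carried little muscle signal. Without it the median in control was 0.46, with Abcg1, Dhcr7 and Srebf2 past the threshold. Over the 12 fits that each left out 1 array, 0 to 2680 genes of the tissue passed in this comparison. The shares of all genes at an unadjusted p under 0.05 in these refits are not given here. Without control SD array 1, which lacks most Ucp1 signal, the median was 0.0024 and the count stayed at 4. The median was below 0 without control HFD array 3 (−0.049) and with the muscle covariate (−0.031).

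**Figure D2:**
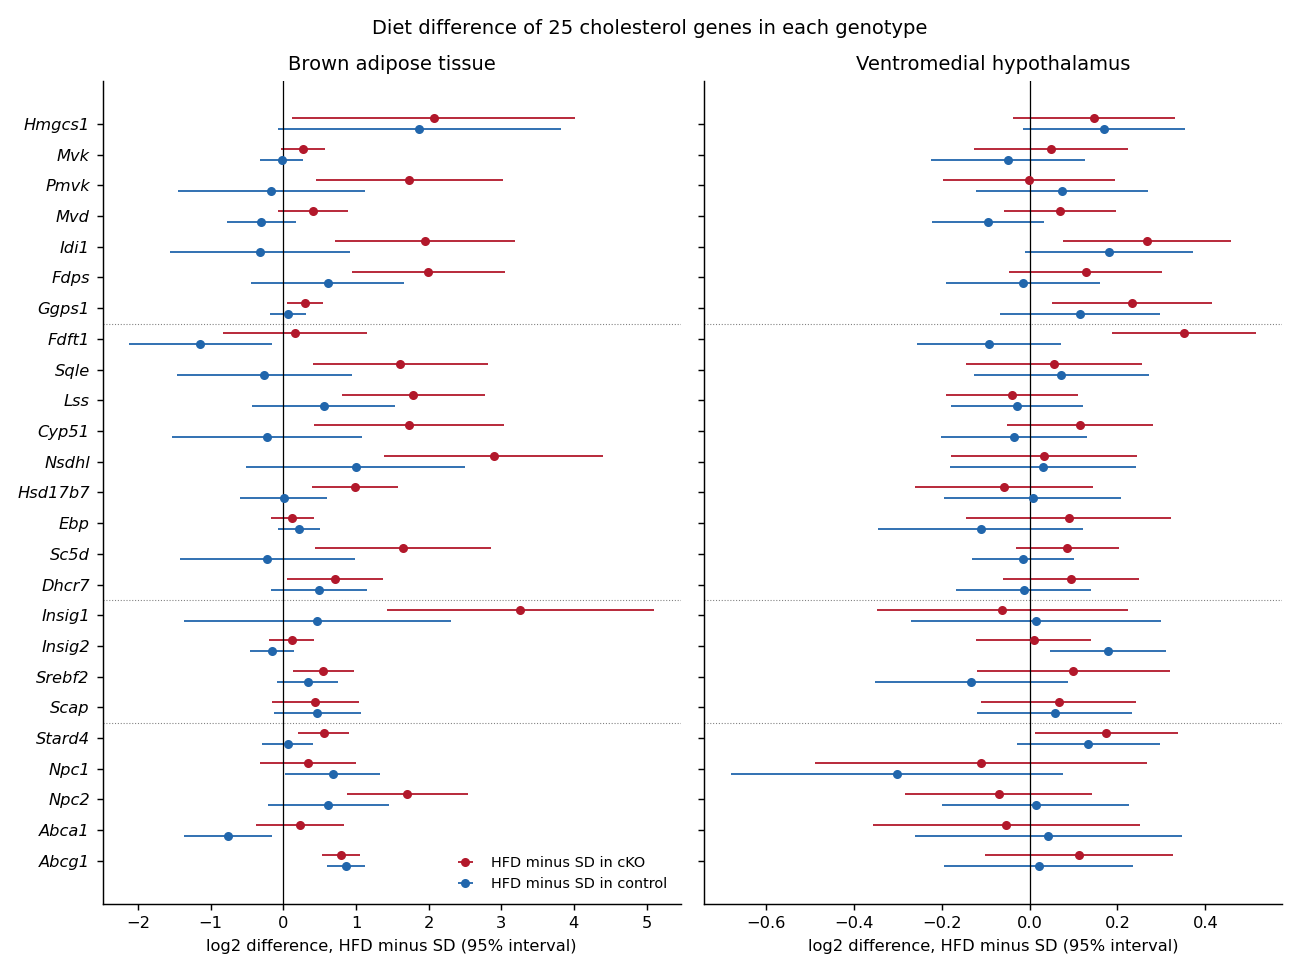
Log2 difference, HFD minus SD, of the 25 members (rows) in each tissue (panels) with 95% intervals from limma, cKO and control in separate colours. In BAT the cKO points all lie right of 0, up to 3.26 for Insig1, while the control points lie on both sides; in VMH the points of both genotypes stay within 0.4 of 0.

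The pattern was refitted with muscle signal in view, although every cKO SD array carried more of it than any cKO HFD array. Muscle and diet therefore cannot be told apart in cKO BAT by these fits. With the muscle list mean as a covariate, 22 of 25 members had a difference above 0 in cKO BAT, the median was 0.68 and 8 had an unadjusted p under 0.05. Without control SD array 1 and cKO SD array 2, the arrays of highest muscle signal, all 25 were above 0 in cKO, the median was 0.80 and 13 had an unadjusted p under 0.05. Leaving out cKO SD array 2 alone, which had the lowest signal of 12 arrays for 14 members, left 9. The adjusted call moved with single arrays as well, since 4 members passed without control SD array 2 (Abcg1, Lss, Npc2 and Nsdhl) and 2 without cKO SD array 1 (Abcg1 and Npc2). Over the 12 fits that each left out 1 array, 0 to 1163 genes of the tissue passed. When arrays were weighted by their fit 20 members passed, but the estimate of the weights stopped before convergence. Shares of all genes in the weighted fit, and at an unadjusted p under 0.05 in these refits, are not given here. Over the 12 arrays, the mean of the 25 members read 8.89, 9.11 and 9.07 on cKO HFD arrays, 8.04, 7.48 and 8.15 on cKO SD arrays, 8.54, 8.56 and 9.01 on control HFD arrays and 7.99, 9.21 and 8.34 on control SD arrays. Control SD array 2, with the lowest muscle signal, had the highest member mean, and cKO SD array 2 had the lowest.

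**Figure D3:**
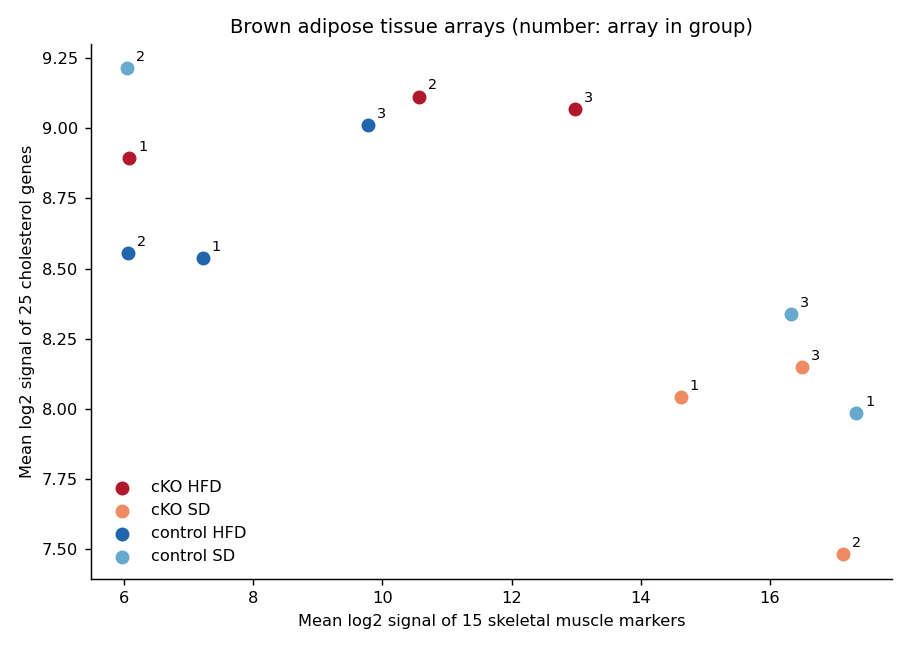
Mean log2 signal of the 25 members (vertical axis) against the mean of 15 skeletal muscle markers (horizontal axis) for the 12 BAT arrays, numbered within their group. Control SD array 2 lies at 6.05 on the muscle axis and 9.21 on the member axis, and cKO SD array 2 at 17.14 and 7.48.

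Genotype was compared next within each diet in BAT. On SD, 23 of 25 members were lower in mean on cKO arrays than on control arrays, beside 53.6% of all genes. Their median was −0.46, against −0.014 over all genes. The sterol arm enzymes Sc5d and Nsdhl, 2 members, had an unadjusted p under 0.05, beside 3.57% of all genes. Sc5d differed by −1.55 ± 0.54 and Nsdhl by −1.57 ± 0.67 (adjusted p = 0.984 for both), and no gene of the tissue passed the threshold (0%). This comparison leaned on control SD array 2, which exceeded all cKO SD arrays for 23 members. Without it the median was −0.21 and no member had an unadjusted p under 0.05, and without control SD array 1 the median was −0.67 with 13. The count was also 0 without cKO SD array 2, 7 without cKO SD array 3, 5 without control HFD array 3 and 4 without control SD array 3. On HFD, 18 members were higher in mean in cKO, beside 47.4% of all genes. Their median was 0.31, against −0.012 over all genes, or 0.17 without control HFD array 1. In this comparison 1 had an unadjusted p under 0.05, beside 8.21% of all genes. That member was Abca1, at 0.77 ± 0.27 (adjusted p = 0.562), with all 3 cKO HFD arrays above the control HFD arrays. Averaged over diets 21 members were below 0, beside 53.6% of all genes, and the median was −0.10. That median was 0.036 without control SD array 2 and 0.016 with the muscle covariate, and without other single arrays it lay between −0.19 and −0.018. None had an unadjusted p under 0.05, beside 8.65% of all genes. No BAT gene passed the threshold in any of these comparisons by limma. All 15 muscle markers were higher in mean in cKO than in control on both diets, by a median of 2.81 on SD and 2.10 on HFD with overlapping arrays. Endothelial list means, over 6 markers, were 9.62, 9.49 and 9.53 on cKO HFD arrays and 10.56, 11.34 and 10.36 on control HFD arrays. All 6 endothelial markers were lower in mean in cKO on HFD, by a median of −1.40, and 5 of them did not overlap. Muscle was fitted as a covariate, as given above for the average over diets. The part of the endothelial list in the genotype values was not tested.

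The diet difference was larger in cKO than in control BAT for 21 of 25 members, beside 48% of all genes. The median was 0.98, against −0.012 over all genes. For 9 members the unadjusted p of this interaction was under 0.05, all of them above 0, beside 1.7% of all genes in that direction, and every adjusted p was 1, with 0% of genes past the threshold. Idi1 had the smallest unadjusted p, with an interaction of 2.27 ± 0.78, followed by the sterol arm reductase Hsd17b7 at 0.98 ± 0.38 and Abca1 at 0.995 ± 0.38. Fdft1 had an interaction of 1.30 ± 0.62 (95% interval −0.094 to 2.70). The count of 9 was 1 without control SD array 2 and 15 without control SD array 1, and it was 2 to 5 without cKO HFD array 2 or 3, cKO SD array 1 or 2, control HFD array 1 or 2, or control SD array 3. The median stayed between 0.70 and 1.15 in all 12 such fits.

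In VMH the member differences were small on the log2 scale. Their median SE was also small, at 0.084 against 0.29 in BAT. No member passed the adjusted threshold in any of the 6 comparisons by limma, beside 0.263% of all genes in the genotype comparison on SD, 0.287% on HFD and 0.615% averaged over diets. With cKO set against control on SD, 11 of 25 members were higher in mean, beside 56.8% of all genes. Their median was −0.018, against 0.018 over all genes. It was 0.017 without cKO SD array 1, 0.029 with the oligodendrocyte covariate, and between −0.058 and −0.0027 without other single arrays. Of the members 2 had an unadjusted p under 0.05, beside 6.67% of all genes. Fdft1, the squalene synthase, read 9.89, 10.11 and 9.91 in cKO HFD, 9.58, 9.66 and 9.62 in cKO SD, 9.78, 9.73 and 9.75 in control HFD and 9.87, 9.94 and 9.72 in control SD. On SD the 3 cKO arrays were below all control arrays, a difference of −0.23 ± 0.074 (adjusted p = 0.591). On HFD the 3 cKO arrays were above all control arrays, a difference of 0.22 ± 0.074 (adjusted p = 0.324). The other was Insig2, which read 9.40, 9.36 and 9.37 in cKO HFD, 9.35, 9.41 and 9.33 in cKO SD, 9.43, 9.33 and 9.33 in control HFD and 9.09, 9.21 and 9.25 in control SD. It differed on SD by 0.18 ± 0.060 (adjusted p = 0.591) without overlap. Hmgcs1 read 14.56, 14.68 and 14.64 in cKO HFD, 14.54, 14.49 and 14.41 in cKO SD, 14.67, 14.35 and 14.44 in control HFD and 14.25, 14.40 and 14.31 in control SD. On SD its arrays did not overlap either, at 0.16 ± 0.084.

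Npc1, the lysosomal cholesterol exporter, had the lowest mean difference of the module on SD in VMH. It read 8.96, 8.88 and 8.91 in cKO HFD, 8.83, 9.18 and 9.07 in cKO SD, 9.07, 8.90 and 9.05 in control HFD and 8.88, 9.32 and 9.73 in control SD. Its difference was −0.28 ± 0.17 (adjusted p = 0.835). It was −0.072 without control SD array 3, −0.50 without control SD array 1 and −0.18 without cKO SD array 1. Oligodendrocyte markers moved with it: their list mean was 9.12, 10.06 and 9.70 on cKO SD arrays and 9.51, 10.14 and 10.89 on control SD arrays, with 15 of 16 markers past the filter lower in cKO. With that list mean as a covariate the Npc1 difference became 0.013 (adjusted p = 0.967).

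On HFD the mevalonate arm was higher in mean in cKO VMH for 7 of 7 members, with a median of 0.14 and 4 of 7 without overlap. In the whole module 16 of 25 members were higher, beside 59.6% of all genes, 7 without overlap beside 12.9% of all genes, and 2 had an unadjusted p under 0.05 beside 11.1%. Cyp51, the demethylase of lanosterol, read 9.88, 9.97 and 10.01 in cKO HFD, 9.79, 9.91 and 9.82 in cKO SD, 9.81, 9.79 and 9.60 in control HFD and 9.69, 9.75 and 9.87 in control SD. Its difference on HFD was 0.22 ± 0.075 (adjusted p = 0.328). Fdps read 8.75, 8.70 and 8.73 in cKO HFD, 8.59, 8.67 and 8.54 in cKO SD, 8.42, 8.63 and 8.61 in control HFD and 8.59, 8.43 and 8.69 in control SD. It differed by 0.17 ± 0.079. Mvd read 6.77, 6.71 and 6.73 in cKO HFD, 6.63, 6.68 and 6.70 in cKO SD, 6.58, 6.67 and 6.61 in control HFD and 6.71, 6.81 and 6.64 in control SD. It differed by 0.11 ± 0.058. Idi1 and Ggps1, at 0.17 and 0.14, completed the mevalonate genes without overlap, while Lss, at −0.088, was the member lower without overlap. The 5 measured genes of transport and efflux were all slightly below 0, between −0.091 and −0.015. Oligodendrocyte list means were 9.53, 9.34 and 9.51 on cKO HFD arrays and 9.79, 9.74 and 9.97 on control HFD arrays, lower without overlap. General neuron list means, over 10 markers, were 12.62, 12.49 and 12.69 on cKO HFD arrays and 12.46, 12.40 and 12.35 on control HFD arrays. Astrocyte list means, over 12, were 10.23, 10.34 and 10.22 on cKO HFD arrays and 10.18, 10.07 and 10.21 on control HFD arrays. Both list means were higher in cKO without overlap. Of general neuron markers 9 were higher and 1 lower in mean. Single ones differed by −0.011 to 0.89, with a median of 0.095, and 1 passed the adjusted threshold. Single astrocyte markers differed by −0.31 to 1.09, with a median of 0.042, and 4 were higher and 3 lower without overlap. The part of the neuron and astrocyte lists in the member values was not tested. Averaged over diets 3 members had an unadjusted p under 0.05, beside 11.2% of all genes, namely Cyp51 at 0.15 ± 0.053, Hmgcs1 at 0.15 ± 0.059 and Insig2 at 0.098 ± 0.042. The count was 0 without control HFD array 3, 1 without cKO SD array 1 or without cKO HFD array 2 or 3, and 5 without control SD array 3. It was 5 with array weights and 6 with the oligodendrocyte list mean as a covariate.

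**Figure D4:**
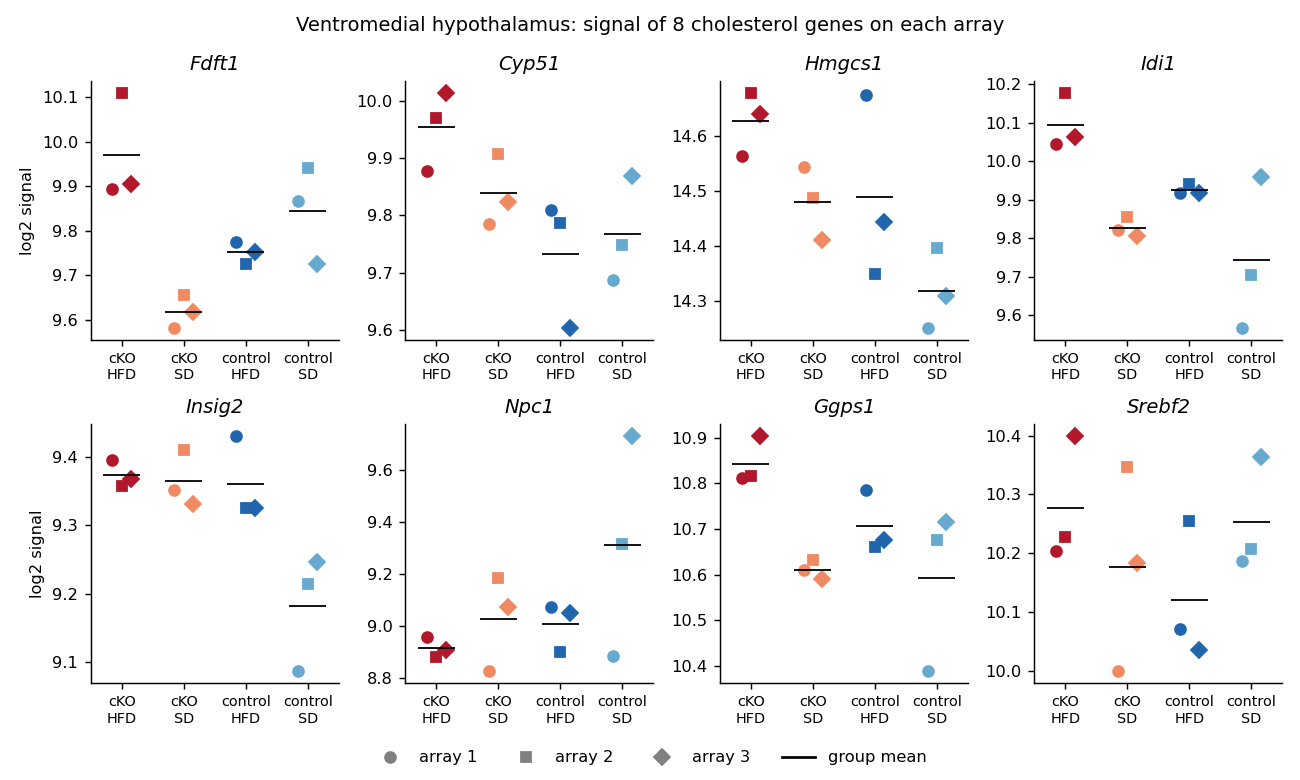
Log2 signal (vertical axes, scaled separately) of 8 members on each VMH array, with groups along the horizontal axis, marker shape for the array number and a line for the group mean. Fdft1 is lower on all 3 cKO SD arrays than on control SD arrays and higher on all 3 cKO HFD arrays than on control HFD arrays, while Srebf2 overlaps between all groups.

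Diet was the last comparison in VMH. Markers of VMH neurons moved with it: the mean over 10 read 10.08, 10.17 and 9.94 in cKO HFD, 9.65, 9.67 and 9.76 in cKO SD, 9.92, 10.14 and 9.93 in control HFD and 9.71, 9.65 and 9.70 in control SD. Every HFD array was above every SD array, with the defining Nr5a1 between 7.53 and 8.47 on all arrays, and the part of this in the values below was not tested. In cKO VMH 18 of 25 members had a higher mean on HFD, beside 59.2% of all genes, with a median of 0.070 against 0.026 over all genes, or 0.013 without cKO SD array 1. Arrays did not overlap for 8 of them, beside 11.8% of all genes, and 4 had an unadjusted p under 0.05 beside 9.51%. The 4 were Fdft1 at 0.35 ± 0.074 (adjusted p = 0.199), Idi1, Ggps1 and Stard4, and 1 gene of the tissue passed the threshold (0.00597%). Idi1 read 10.04, 10.18 and 10.06 in cKO HFD, 9.82, 9.85 and 9.81 in cKO SD, 9.92, 9.94 and 9.92 in control HFD and 9.57, 9.70 and 9.96 in control SD. All 3 cKO HFD arrays were above every other VMH array, a diet difference of 0.27 ± 0.087 (adjusted p = 0.372). Ggps1 read 10.81, 10.82 and 10.90 in cKO HFD, 10.61, 10.63 and 10.59 in cKO SD, 10.79, 10.66 and 10.68 in control HFD and 10.39, 10.68 and 10.72 in control SD. Its cKO HFD arrays were also above every other VMH array, and it differed by 0.23 ± 0.083 between diets in cKO. Stard4 read 7.83, 7.87 and 7.76 in cKO HFD, 7.59, 7.73 and 7.62 in cKO SD, 7.91, 7.80 and 7.79 in control HFD and 7.62, 7.84 and 7.65 in control SD. Its difference was 0.17 ± 0.074. In control VMH 14 of 25 members were higher in mean on HFD, beside 55.4% of all genes. For 1, Insig2 at 0.18 ± 0.060 (adjusted p = 0.494), the unadjusted p was under 0.05, beside 8.38% of all genes, with 0% past the threshold.

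Of the sensors in VMH, Srebf2, Scap and Insig1 varied little by group. Insig2, with values given above, was lower on all control SD arrays than on any other VMH array. Srebf2 read 10.20, 10.23 and 10.40 in cKO HFD, 9.999, 10.35 and 10.18 in cKO SD, 10.07, 10.25 and 10.04 in control HFD and 10.19, 10.21 and 10.36 in control SD. Scap read 8.49, 8.51 and 8.52 in cKO HFD, 8.32, 8.47 and 8.52 in cKO SD, 8.36, 8.62 and 8.56 in control HFD and 8.38, 8.46 and 8.53 in control SD. Insig1, the SREBP-induced anchor of SCAP, read 9.95, 9.93 and 9.91 in cKO HFD, 9.95, 10.05 and 9.98 in cKO SD, 10.003, 9.95 and 9.83 in control HFD and 9.56, 9.96 and 10.22 in control SD. Control SD arrays of Insig1 alone spread over more than 0.6 log2 units. The interaction in VMH had 1 member at an unadjusted p under 0.05, beside 5.64% of all genes, which was Fdft1, with 0% of all genes past the threshold.

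Other genes of cholesterol handling and of fatty acid synthesis were set beside the module, from lists of 42 and 14 genes. None of the 28 and 11 measured past the filter in VMH, or of the 26 and 13 in BAT, passed the adjusted threshold of limma in any comparison. In cKO BAT 12 of the 13 fatty acid synthesis genes had a higher mean on HFD, beside 56.5% of all genes. Their median was 1.46, against 0.042 over all genes tested. For 6 the unadjusted p was under 0.05, all higher, beside 11.8% of all genes in that direction. Fads2, a fatty acid desaturase, read 6.88, 6.63 and 7.003 on cKO HFD arrays, against 5.95, 5.70 and 5.80 on cKO SD arrays, a difference of 1.02 ± 0.18 (adjusted p = 0.0888). Me1, the malic enzyme that supplies reducing power, had the next smallest p at 1.46 ± 0.44 (adjusted p = 0.128). The other cholesterol genes gave 18 higher and 8 lower, beside the same 56.5% of all genes higher. Their median was 0.31, and 5 had an unadjusted p under 0.05, beside 22.5% of all genes. Cyp27a1, the sterol hydroxylase that makes an oxysterol, read 8.47, 8.94 and 8.21 on cKO HFD arrays, against 10.53, 10.61 and 9.63 on control HFD arrays. It was lower without overlap in cKO on HFD, at −1.72 ± 0.34 (adjusted p = 0.467), and its diet difference in control BAT was 1.55 ± 0.34 (adjusted p = 0.0683). In VMH, Scd1, a desaturase of fatty acids, read 13.63, 13.72 and 13.74 in cKO HFD, 13.57, 14.20 and 13.82 in cKO SD, 14.24, 14.30 and 14.40 in control HFD and 14.01, 14.37 and 15.13 in control SD. It was lower in mean in cKO on both diets, at −0.64 ± 0.24 on SD (adjusted p = 0.665) and −0.62 ± 0.24 on HFD (adjusted p = 0.371), and its arrays overlapped on SD. The oligodendrocyte list was also lower in mean in cKO on both diets, and its part in the Scd1 values was not tested. In BAT, Scd1 was at the ceiling of the scale, 19.93, on all 12 arrays and gives no comparison.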

How the data were processed

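Total RNA was measured on 24 Affymetrix arrays, 3 in each of 8 groups. The deposited log2 signals, 1 column per array, end at a ceiling of 19.93. Tools listed per the submitters' processing notes are Affymetrix Expression Console 1.1.1 together with PLIER 2.0, without their roles, and how arrays were normalized to each other is not given in the sources used here. VMH arrays had medians of 5.48 to 5.57 and BAT arrays of 4.07 to 4.16, so tissues were not compared. Levels of different genes were not compared.

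Of 72688 features 6732 were controls, 30604 others had 1 symbol and 2146 had several. A RefSeq gene table (GRCm38.p6) matched 22818 features and updated the symbols of 827. A gene was represented by its brightest feature and entered the tests of a tissue at a mean signal of at least 5.39 in VMH or 4.05 in BAT, the medians of features that were not controls.

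Per tissue, a model of the 4 group means was fitted to its 12 arrays with limma 3.58.1 (R 4.3.3), unweighted and unblocked, and gave 6 two-sided comparisons, each adjusted by Benjamini-Hochberg over all genes tested with a threshold of 0.05. Errors given after ± are SEs of that fit, and their median over members was 0.084 in VMH and 0.29 in BAT. The number of arrays limits the precision. Array values were printed for members past the threshold, for the 4 of smallest unadjusted p in each comparison of a tissue other than the interaction, and for Srebf2, Scap, Insig1 and Insig2. Of the other lists, genes past the threshold or the 2 of smallest p were to be named. The fit was tested on simulated data. The members, the gene lists and the tests were chosen with earlier results of these data known.

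The alternatives tried were no filter, array weights, quantile normalization, a replicate block, only the groups compared, a linear pseudocount of 16, averaging of a gene's features, a prior that is robust and follows the mean signal, a list mean of skeletal muscle markers (BAT) or oligodendrocyte markers (VMH) as a covariate, and omission of each array in turn. BAT without the 2 arrays of highest muscle signal was added after seeing the data.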

Additional observations from a re-analysis of the deposited data

Results flagged for a closer look

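Fdft1, the squalene synthase, had opposite genotype differences on the 2 diets in VMH, with arrays that did not overlap on either. It was −0.23 ± 0.074 on SD and 0.22 ± 0.074 on HFD, cKO minus control. The interaction was 0.44 ± 0.11 (unadjusted p = 0.00146, limma adjusted p = 0.842), so the difference between diets failed the correction over all genes. Over 12 fits that each left out 1 array it lay between 0.37 and 0.50. Opposite differences without overlap on both diets were found for 92 of 16738 genes, or 0.55%.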

How the results depend on the processing

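Of the counts of members past the threshold in each comparison, and at an unadjusted p under 0.05 in the diet comparisons of BAT, 275 alternative values stayed within 1.5 times the value reported and 23 did not. All 23 lay in the diet comparisons of BAT, the only ones with unadjusted counts in this set. A count of 0 that stayed at 0 is among the 275. Every count past the threshold in the reported fit was 0, other than 1 for diet in control BAT. Outside the set, the unadjusted count in BAT ran from 0 to 13 by genotype on SD when single arrays were left out. For the BAT interaction it ran from 1 to 15. In control BAT no member passed the threshold (0) with only the groups compared, array weights, the muscle covariate, or without the 2 arrays of highest muscle signal. When single arrays were left out 0 to 3 did, beside 0 to 2680 of all genes. There, 2 members had an unadjusted p under 0.05 with array weights, and 1 to 9 when single arrays were left out. In cKO BAT 20 members passed with array weights, whose estimate stopped before convergence. When single arrays were left out 0 to 4 passed, beside 0 to 1163 of all genes. The 17 members at an unadjusted p under 0.05 there became 8 with the muscle covariate and 9 to 19 when single arrays were left out. The cause was not tested. With the oligodendrocyte covariate the Npc1 difference on SD in VMH changed sign, to 0.013. With the muscle covariate 22 of the 25 members, all of which had been higher on HFD in cKO BAT, remained above 0 there.

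Replicate numbers are shared between groups, but same-numbered arrays did not deviate together in every pair, with correlations from −0.34 to 0.28 in VMH and from −0.77 to 0.39 in BAT. With the replicate block the adjusted p of Abcg1 in control BAT was 0.0557 and the count of members past the threshold was 0, so the block ended that call. In VMH, members at an unadjusted p under 0.05 numbered 1 to 5 on SD and 1 to 4 on HFD by genotype when single arrays were left out, and 3 to 5 and 0 to 2 by diet in cKO and in control. In BAT they numbered 0 to 5 on HFD by genotype.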
